A study of Mus musculus with 6 samples.

Results

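The ubiquitin conjugation and deubiquitination enzymes described here are the genes whose symbols begin with Ube1 to Ube4, with Uba or Usp and a digit, or with Uch or Otu. They were read from probe sets that the platform annotation gives exactly 1 gene symbol, with the probe set of highest mean kept for each gene. That gave 61 genes from 89 probe sets, out of 8251 genes with such a probe set. The rule itself reads symbols and mean level, not differences between samples. The data are 6 oligonucleotide arrays of total RNA from mouse hippocampus, numbered 1 to 6 as in their titles, from a study of mice that overexpress the neuronal RNA-binding protein HuD. The labels give no genotype, strain, age, sex or promoter for any sample and do not say whether a sample is 1 animal or a pool. All 6 samples therefore carry no group, none is called transgenic or control, and no comparison between genotypes or test was made. Differences are between single samples, with no replicates to check them.

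Ubiquitin is a small protein attached to other proteins in a relay. An activating enzyme (E1) charges it, a conjugating enzyme (E2) carries it, and a ligase (E3) chooses the substrate, after which the proteasome, an endosome or a repair factor may read the chain. Deubiquitinases cut ubiquitin off again, and in neurons the balance is known for its part in synapse remodelling and protein turnover. A few members serve related modifiers such as NEDD8 or ISG15, which use enzymes of the same build.

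As a group these enzymes varied from sample to sample about as much as expressed genes at large, and few of them by much. A gene is called expressed here when its 6 values have a median over the array median, which held for 48 of the 61 members and 4838 of the 8251 genes. The range is the highest minus the lowest sample on the log2 scale, after division of each array by its median. The median range of the 48 members was 0.39, or 1.31-fold, against 0.40, or 1.32-fold, for all 4838 expressed genes. A range over 2-fold was reached by 1 of the 48, Otub1, against 4.13% of all expressed genes. A range over 1.5-fold was reached by 8 of the 48 (16.7%), against 23.7% of all expressed genes. The 8 were Otub1, Uchl5, Ube2f, Ube2d2a, Otud4, Ube2k, Ube2s and Ube4b. Without sample 3 the number over 1.5-fold was 5 (10.4%), against 18.2% of all expressed genes, with Otud4 (0.36), Ube2s and Ube4b (0.41) no longer past it. Ube2f (0.56) and Ube2s did not pass without sample 1, Ube4b (0.48) without sample 2, and Ube2d2a (0.45) without sample 4. Among the brighter genes, those above the array's 75th percentile, 3 of 28 members (10.7%) passed 1.5-fold, against 12.6% of 2539 genes. The median ranges there were 0.34 for members and 0.34 for all genes.

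**Figure D1:**
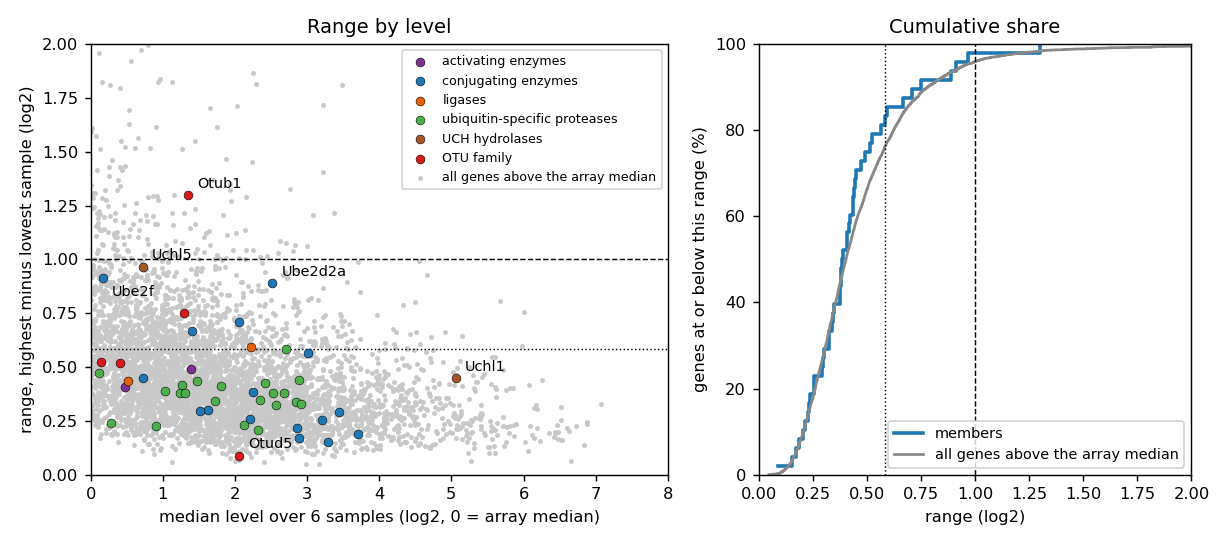
Left, the range over 6 samples (log2) of each of the 48 expressed members, coloured by class, and of all 4838 expressed genes in grey, against the median level over the 6 samples (log2, 0 is the array median); 24 genes with a range over 2 lie above the axis. Right, the cumulative share of genes (%) by range; dashed and dotted lines mark 2-fold and 1.5-fold, and the members' curve runs close to that of all genes, with Otub1 alone past 2-fold.

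The promoters of 3 members are shown because these genes lead the accounts of single members below. Otub1 had the widest range, Usp2 was the only member of 15 whose 2 brightest probe sets placed it highest and lowest in the same samples, and Uchl1 is the hydrolase best known from neurons. Each window runs from 250 bases before to 50 bases after the start in RefSeq (GRCm38.p6), 5′ to 3′ on the gene's strand, and capitals mark the GC box GGGCGG on either strand. The windows are chr19:7206235-7206534 on the minus strand for Otub1, chr9:44084670-44084969 on the plus strand for Usp2 and chr5:66675871-66676170 on the plus strand for Uchl1.
Otub1: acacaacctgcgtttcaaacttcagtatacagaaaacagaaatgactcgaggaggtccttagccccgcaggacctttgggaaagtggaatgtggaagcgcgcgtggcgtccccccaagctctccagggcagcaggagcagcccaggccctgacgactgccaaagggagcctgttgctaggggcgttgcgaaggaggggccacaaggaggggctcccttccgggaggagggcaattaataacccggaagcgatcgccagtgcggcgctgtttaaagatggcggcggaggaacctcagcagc
Usp2: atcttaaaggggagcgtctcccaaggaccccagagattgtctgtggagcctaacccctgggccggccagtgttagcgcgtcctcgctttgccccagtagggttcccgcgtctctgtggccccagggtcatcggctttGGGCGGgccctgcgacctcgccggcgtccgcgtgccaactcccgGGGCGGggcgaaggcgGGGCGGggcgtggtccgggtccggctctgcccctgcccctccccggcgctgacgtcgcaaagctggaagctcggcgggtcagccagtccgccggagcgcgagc
Uchl1: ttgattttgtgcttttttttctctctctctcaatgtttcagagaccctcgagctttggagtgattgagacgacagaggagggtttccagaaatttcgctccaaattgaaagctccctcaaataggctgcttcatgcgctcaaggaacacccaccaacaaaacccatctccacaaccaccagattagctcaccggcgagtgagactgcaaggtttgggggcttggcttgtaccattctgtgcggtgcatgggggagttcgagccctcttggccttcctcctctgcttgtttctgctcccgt

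The Usp2 window held 3 GC boxes, and the Otub1 and Uchl1 windows held 0. RefSeq gave a window for 37 of the 48 expressed members, and 31 of the 37 (83.8%) held GGGCGG on either strand, against 71.6% of 3931 expressed genes and 35.7% of all 32851 windows. The members' windows were also richer in G and C, at a median of 68.3%, against 61.5% for expressed genes and 52.7% for all windows. The part of this in the GC box shares was not tested. The letters TATAAA stood in 3 of the 37 (8.11%), those of Ube2h, Ube2s and Usp19, against 9.23% of expressed genes and 13.6% of all windows. The letters CACGTG, an E-box, stood in 3 (8.11%), those of Ube2b, Ube4b and Usp4, against 13.3% of expressed genes and 7.15% of all windows. All the members named here for TATAAA or CACGTG also held GGGCGG. Whether the motifs share bases was not examined. A match is a description of the letters in the window only.

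Among the activating enzymes, 2 of 3 members were expressed. Uba3, the catalytic subunit of the enzyme that activates NEDD8, had signals of 216.2, 157.2, 156.8, 168.4, 166.4 and 153.9 in samples 1 to 6, a range of 1.41-fold. Sample 1 stood above the other 5, which lay close together. Uba7, which activates ISG15, ran between 76.3 in sample 2 and 98.8 in sample 3, with 89.4, 89.8, 86.1 and 86.4 in samples 1, 4, 5 and 6, a range of 1.33-fold. Uba1y, the Y-linked relative of the main ubiquitin-activating enzyme, was below the array median in every sample.

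The conjugating enzymes had 16 of 21 members expressed and a median range of 0.30, or 1.23-fold, with 4 of the 16 (25.0%) over 1.5-fold, against 23.7% of all expressed genes. Ube2f, an E2 for NEDD8, had signals of 101.6, 77.4, 60.1, 60.0, 54.2 and 79.6 in samples 1 to 6. Sample 1 was highest and sample 5 lowest, a range of 1.88-fold. Samples 4 and 5 lay under the array median, where signal is not shown to be above background, and with them raised to that median the range was 1.62-fold. NEDD8 itself and Nae1, the partner of Uba3, were looked up after the values of Uba3 and Ube2f were seen. Nedd8 had signals of 574.6, 526.8, 519.5, 455.0, 469.2 and 488.4 in samples 1 to 6, also highest in sample 1, with a range of 1.27-fold. Nae1 ranged 1.24-fold and was highest in sample 3 after scaling and in sample 1 (239.7) in deposited signals.

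Ube2d2a, a widely used E2 of the Ube2d family that works with many ligases, had signals of 366.8, 331.2, 363.8, 252.7, 466.5 and 352.2 in samples 1 to 6. Sample 4 was low and sample 5 high, a range of 1.85-fold, with the other 4 samples between. Its second probe set, whose name marks shared probes, was instead highest in sample 2 (86.4) and lowest in sample 3 (52.2). Its close relative Ube2d3 ranged only 1.13-fold, from 446.1 to 483.2 in deposited signals.

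Ube2k, an E2 that builds lysine-48 chains and binds huntingtin, had signals of 186.0, 296.3, 220.1, 299.6, 186.2 and 301.3 in samples 1 to 6. The samples fell into high values in 2, 4 and 6 and lower ones in 1, 3 and 5, a range of 1.64-fold. Its other probe set did not show this, with signals of 169.9, 156.2, 154.9, 143.2, 169.6 and 154.7 and a range of 1.20-fold. The name of the brighter probe set marks shared probes, so the wide range of Ube2k rests on that probe set alone.

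The other conjugating enzymes were steadier. Ube2s, which extends lysine-11 chains for the anaphase-promoting complex, had its lowest signal of 128.0 in sample 3 and its highest of 212.8 in sample 1, a range of 1.59-fold. Ube2g1, an E2 of lysine-48 chains, was also lowest in sample 3 (389.6) and reached 590.5 in sample 2, a range of 1.48-fold. Ube2n, the E2 of lysine-63 chains, had signals of 667.1, 782.2, 743.8, 658.6, 684.5 and 689.4 in samples 1 to 6, a range of 1.23-fold with samples 2 and 3 highest. Its partners, which lack a catalytic cysteine, did not share its highest sample: Ube2v1 ranged 1.14-fold and was highest in sample 6, and Ube2v2 ranged 1.37-fold and was highest in sample 1. Ube2b, a Rad6 homologue of DNA damage tolerance, was the narrowest, with signals of 626.1, 609.8, 590.8, 567.9, 578.2 and 609.6 and a range of 1.11-fold. Its paralogue Ube2a ranged 1.23-fold. Ube2h, Ube2e1, Ube2z, Ube2r2 and Ube2o ranged between 1.16-fold and 1.31-fold.

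Both ligases were expressed. Ube4b, a U-box ligase that lengthens chains, had signals of 280.2, 343.2, 222.0, 306.2, 266.1 and 324.9 in samples 1 to 6, lowest in sample 3 and highest in sample 2, a range of 1.51-fold. Ube3a, the HECT ligase lost from neurons in Angelman syndrome and expressed there from the maternal allele, had 79.1, 96.0, 75.8, 94.7, 107.4 and 85.6 in samples 1 to 6. Samples 1 and 3 were lowest and sample 5 highest, a range of 1.35-fold.

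**Figure D2:**
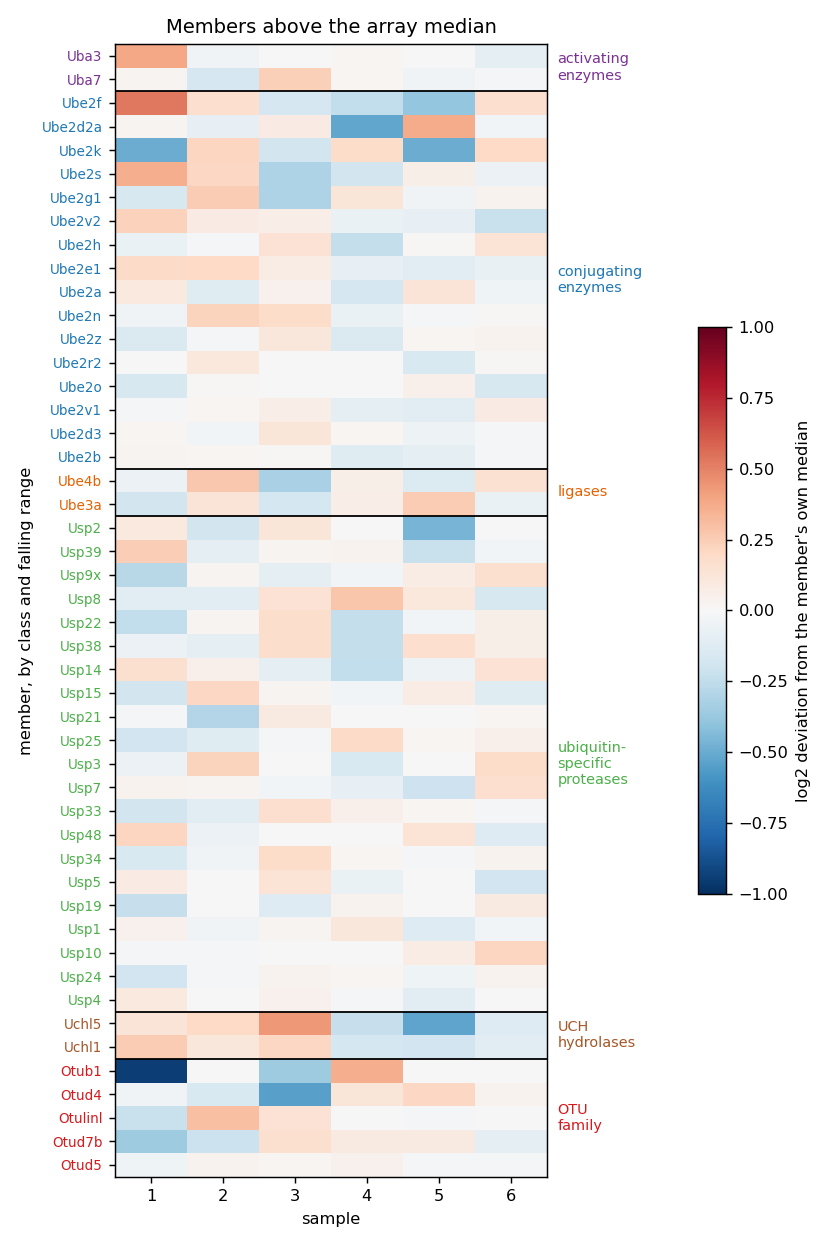
The log2 deviation of each of the 48 expressed members from its own median over the 6 samples, with samples across and members down, grouped by class and ordered by falling range; red is above and blue below the member's median. The strongest colours belong to a few rows (Otub1, Otud4, Uchl5, Ube2f, Ube2d2a, Ube2k), and no sample is uniformly red or blue.

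The ubiquitin-specific proteases, the largest class, had 21 of 27 members expressed. By their brightest probe sets, 0 of the 21 passed 1.5-fold, against 23.7% of all expressed genes. Their ranges ran from 0.21 to 0.58 on the log2 scale with a median of 0.38. Usp2, a protease whose transcript is known to follow the circadian clock, was the widest and lay just under that mark. Its signals were 439.3, 352.7, 425.3, 414.2, 298.7 and 409.4 in samples 1 to 6, and those of its second probe set were 314.7, 261.0, 310.9, 297.9, 253.5 and 259.9. After scaling, both probe sets were highest in sample 3 and lowest in sample 5, with ranges of 0.58 and 0.37. In deposited signals both were highest in sample 1 and lowest in sample 5.

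Usp9x, an X-linked protease of neuronal development, had 381.4, 460.5, 415.7, 458.3, 489.2 and 518.5 in samples 1 to 6, lowest in sample 1 and highest in sample 6, a range of 1.36-fold. Its second probe set, which lay near the array median, had its low in sample 2 and its high in sample 4. Usp39, a splicing factor with a protease fold that lacks the catalytic residues, had 81.0, 62.7, 66.3, 70.3, 58.6 and 66.8, highest in sample 1. Its range was 1.39-fold, or 1.29-fold with sample 5 raised to the array median. Usp4 was the narrowest, with 336.9, 307.3, 309.6, 313.4, 293.2 and 315.1 and a range of 1.15-fold.

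Of the other proteases, Usp8, which acts on receptors at endosomes, ranged 1.35-fold and was highest in sample 4. Usp22, of the SAGA chromatin complex, ranged 1.34-fold. Like it, Usp33 (1.27-fold), Usp34, Usp5, Usp38 (1.34-fold) and Usp21 (1.30-fold) were highest in sample 3 after scaling. Usp7, a regulator of Mdm2 and p53, ranged 1.30-fold and was highest in sample 6. Usp5, which takes apart free chains, ranged 1.25-fold. For Usp34 the second probe set had 106.9 in sample 5 and 217.7 in sample 4, a range of 2.03-fold, against 1.26-fold for the brighter one, whose name marks shared probes. Usp1, Usp3, Usp10, Usp15, Usp19, Usp24, Usp25 and Usp48 ranged between 1.17-fold and 1.31-fold. The second probe sets of Usp15 and Usp19 ranged more widely, 1.63-fold and 1.47-fold, and that of Usp3 ranged 1.24-fold.

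Both hydrolases of the UCH class were expressed, and the same 3 samples held the highest values of each. Uchl1, a hydrolase abundant in neurons, had signals of 2505, 2224, 2320, 1879, 1846 and 1941 in samples 1 to 6. Samples 1, 2 and 3 lay above samples 4, 5 and 6, with a range of 1.36-fold. Uchl5, which cuts ubiquitin at the proteasome, had 113.6, 116.8, 134.2, 89.3, 72.4 and 95.1, again with samples 1, 2 and 3 above the others, and a range of 1.95-fold. Each has 1 probe set, so neither pattern has a check on a second one. The pattern was not particular to this class: Ube2e1, Ube2v2, Nedd8 and Nae1 also had samples 1, 2 and 3 above the others. The same held for further genes of the ubiquitin pathway, among them Urm1 (1.63-fold), Ufd1, Stub1, Cdc20 and Rad23b. How many of all expressed genes did so was not counted. The summed signal of the 5 choroid plexus markers divided the samples at the same place, the other way round. It was 134, 141, 335, 1802, 723 and 2133 in samples 1 to 6, and its part in the values of Uchl1 and Uchl5 was not tested. Ttr alone gave 1504, 482 and 1798 of the sums in samples 4, 5 and 6. Of the list 2 of 5 were expressed, and Kl, Aqp1 and Cldn2 had medians below the array median. Kl lay above it in samples 4, 5 and 6, and Aqp1 was instead highest in sample 1 (34.4).

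Usp14, the other cysteine protease of the proteasome among the members, had 246.1, 223.0, 196.7, 186.7, 213.5 and 244.1 in samples 1 to 6. Samples 1 and 6 were highest and sample 4 lowest, a range of 1.33-fold, so that sample 3, where Uchl5 was highest, was among the lower ones for Usp14.

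The OTU class had 5 of 6 members expressed, and 2 of the 5, Otub1 and Otud4, ranged over 1.5-fold, against 23.7% of all expressed genes. Otub1, which cuts lysine-48 chains and also blocks Ube2n by binding its charged form, had 83.6, 156.9, 119.4, 207.6, 161.1 and 160.6 in samples 1 to 6. Sample 1 was lowest and sample 4 highest, a range of 2.46-fold or 1.30 on the log2 scale. Its second probe set, named as shared, had signals of 46.0, 68.9, 62.0, 66.2, 69.8 and 65.2, also lowest in sample 1. Its range was 1.53-fold, but the value of sample 1 lay below the array median, and with it raised to that median the range was 1.12-fold. The range of the brighter probe set was 0.72 on the log2 scale without sample 1 and 0.94 without sample 4, so passing 2-fold depends on both samples. The mean of both probe sets ranged by 0.91.

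Otud4 had 150.6, 135.7, 101.0, 169.7, 179.0 and 158.5 in samples 1 to 6, lowest in sample 3, a range of 1.68-fold. Otulinl, a relative of the linear-chain deubiquitinase that lacks its activity, had 59.4, 83.4, 73.0, 70.2, 68.6 and 69.3, and its range was 1.44-fold, or 1.36-fold with sample 1 raised to the array median. Otud7b, which prefers lysine-11 chains, ranged 1.43-fold. Otud5, a deubiquitinase of immune signalling, had the smallest range of the 48 members, 1.06-fold, with 252.9, 260.7, 251.5, 271.3, 258.9 and 257.6. Its second probe set ranged 1.57-fold and was lowest in sample 4, where the brighter one was highest, so the steadiness of Otud5 also rests on 1 probe set. The names of the brightest probe sets of Otud4, Otulinl, Otud7b and Otud5 mark shared or less specific probes, as do those of 9 of the 48 members in all.

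**Figure D3:**
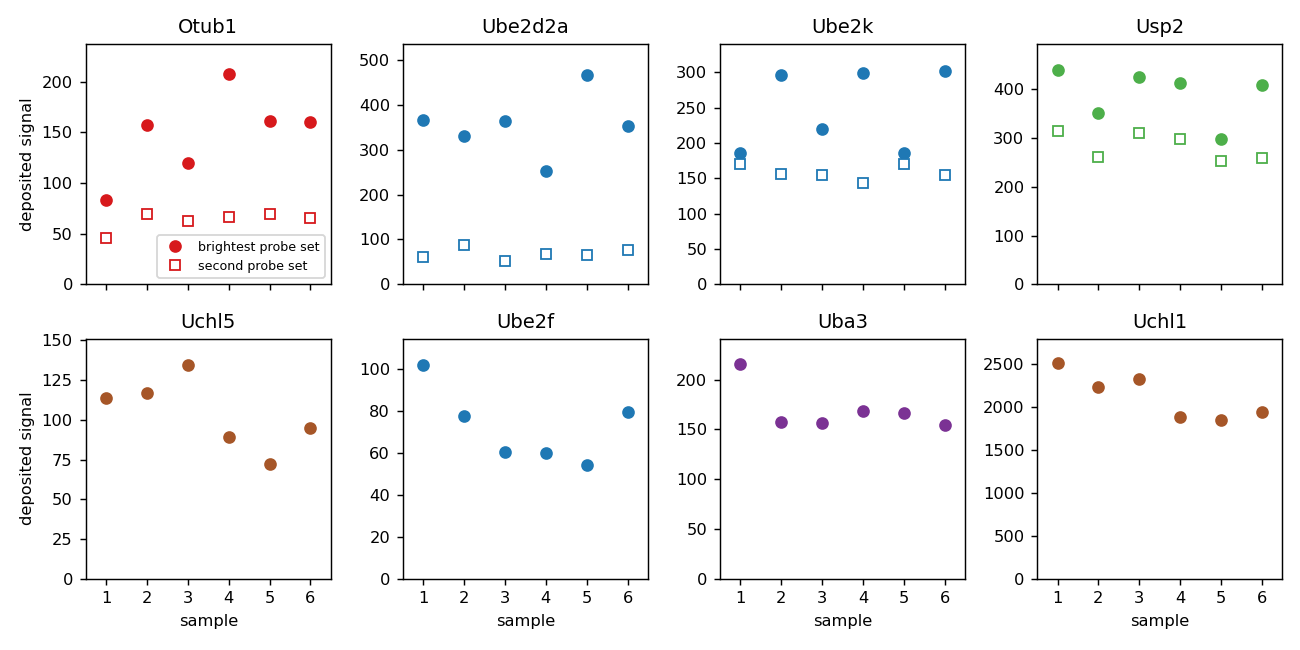
Deposited signal (linear, axis from 0) in samples 1 to 6 for 8 members, with filled circles for the brightest probe set and open squares for a second probe set above the array median where there was one. The pairs of probe sets show the same low sample for Otub1 (sample 1) and Usp2 (sample 5) but not for Ube2d2a or Ube2k, and Uba3 stands out in sample 1 only.

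Where 2 probe sets of a member could be compared, they often placed it differently. Of 15 expressed members with a second probe set above the array median, 3 had the same highest sample in both (Ube2d3, Usp2 and Usp38), against 24.7% of 705 such genes. The same lowest sample was found in 5 (Otub1, Ube2z, Usp15, Usp19 and Usp2), against 24.4% of the 705, and 8 shared neither. For 4 of these 5 that lowest sample was sample 1, and for Usp2 it was sample 5.

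After scaling, sample 3 most often held the highest value and sample 1 the lowest, among the members as among all expressed genes. The highest value lay in sample 3 for 13 of the 48 members (27.1%), against 31.1% of all expressed genes. It lay in samples 1 and 2 for 10 (20.8%) and 9 (18.8%), against 17.3% and 15.6%. For samples 4, 5 and 6 it was 5 (10.4%), 5 (10.4%) and 6 (12.5%), against 12.6%, 12.0% and 11.4%. This order depends on the scaling: in deposited signals sample 1 held the highest value for 13 members (27.1%), against 21.5% of all expressed genes, and sample 3 for 8 (16.7%), against 19.1%. After scaling, the lowest value lay in sample 1 for 16 (33.3%), against 21.6% of all expressed genes, and in sample 5 for 13 (27.1%), against 20.0%. In deposited signals sample 1 was lowest for 14 (29.2%), against 19.7%. After scaling, the lowest value lay in sample 2 for 2 (4.17%), against 11.6%, and in sample 3 for 4 (8.33%), against 11.1%. In samples 4 and 6 it lay for 8 (16.7%) and 5 (10.4%), against 20.7% and 15.0%. By class, the 16 members lowest in sample 1 after scaling included 9 of 21 ubiquitin-specific proteases and 4 of 5 OTU members. The share was 21.6% for all expressed genes. In deposited signals Otud5 and Usp10, counted here, were instead lowest in sample 3. The second probe set of Otud5 was highest in sample 1. In 3 members, Uba3, Usp21 and Usp24, 1 sample stood apart from the other 5 by a gap large for the whole range, against 5.89% of all expressed genes. The members' median deviation was nevertheless small in every sample, between -0.03 in sample 1 and 0.03 in sample 3, against -0.02 to 0.05 for all expressed genes.

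**Figure D4:**
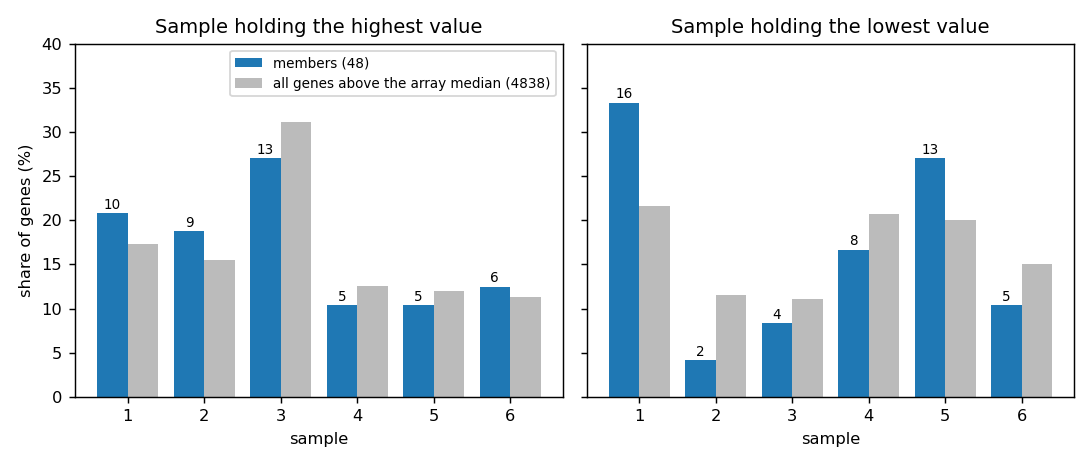
Share of genes (%) whose highest value after scaling (left) or lowest value (right) lay in each of the 6 samples, for the 48 expressed members (blue, with their number above the bar) and all 4838 expressed genes (grey). Sample 3 leads the high end for members and for all genes, and sample 1 the low end, with 16 members; in deposited signals sample 1 leads the high end too, with 13 members against 8 in sample 3.

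Sample 1 also stood at an end of other measures. The 3' to 5' signal ratios of the beta-actin (1.27) and Gapdh (0.86) controls were highest in it, at 1.11 to 1.27 and 0.79 to 0.86 over the 6 arrays. Those of pyruvate carboxylase (1.57 to 3.56) and the transferrin receptor (2.54 to 3.47) were highest in sample 3, and the transferrin receptor ratio was lowest in sample 1. The summed signal of the oligodendrocyte markers (5 of 6 on the array, all expressed) was lowest in sample 1 (4073) and ran to 5695 in sample 5. Of these markers, Mog (140.4) and Mobp (1028) were instead lowest in sample 2. The sum of the microglia list (4 of 5 expressed) was lowest in sample 1 at 1118, against 1290 in sample 6. Its genes differed: Csf1r (324.4) and Aif1 (11.8) were lowest in sample 5. In deposited signals Cx3cr1 was lowest in sample 3 (175.7). The sum of the thalamus list (3 of 3 expressed) was lowest in sample 1 at 482, against 750 in sample 5, but Tcf7l2 was lowest in sample 4 (153.8). The astrocyte sum (4 of 5 on the array and expressed) differed little, from 3873 in sample 1 to 4011 in sample 3, and its genes disagreed. Gfap was lowest in sample 1 (335.9), Aqp4 (502.1) and Slc1a2 (57.0) in sample 3, and Aldoc in sample 6 (2593). The sums of the following lists were not lowest in sample 1. Interneurons (4 of 4) summed to 3051 in sample 4 and 3734 in sample 3. Within that list Gad2 was instead lowest in sample 1 (61.0) and highest in sample 5 (124.4). Mural cells (2 of 2) summed to 121 in sample 4 and 227 in sample 2, and meninges (4 of 4) to 2347 in sample 5 and 6233 in sample 2. Of the hippocampal and pyramidal list, Camk2a, Neurod6 and Wfs1 were expressed and the median of Prox1 lay under the array median. The sums ran from 1053 in sample 3 to 2027 in sample 5. Camk2a (274.8 to 1016) and Wfs1 (332.1 to 591.9) had the same lowest and highest samples. Neurod6 was instead lowest in sample 1 (244.4) and highest in sample 3 (403.4). The part of any of these in the members' values was not tested. In bulk tissue, fewer cells of a type and less RNA per cell cannot be told apart.

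The 13 members not expressed were Ube2c, Ube2e3, Ube2w, Ube2t and Ube2l6 among the conjugating enzymes, Usp12, Usp17la, Usp17lc, Usp18, Usp29 and Usp42 among the proteases, and Uba1y and Otud6b. They include the ISG15 enzymes Ube2l6 and Usp18 and the cell division E2 Ube2c. Ube2c had signals of 66.7, 108.6, 75.1, 54.6, 46.2 and 29.6 in samples 1 to 6, which were over the array median in samples 1, 2 and 3. Its range was 3.75-fold as measured and 1.77-fold with dim values raised to the array median, and its probe set name marks less specific probes. The measured ranges of Ube2e3 (2.33-fold) and Usp29 (2.06-fold) lay wholly under the array median.

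Other genes of the ubiquitin pathway, taken from a list of 97 ligases, modifiers, adaptors and further deubiquitinases, had a like median range. Of 64 on the array 56 were expressed, with a median range of 0.39. Of these 56, 1 passed 2-fold, against 4.13% of all expressed genes, and 10 (17.9%) passed 1.5-fold, against 23.7%. Cbl, a RING ligase of receptor tyrosine kinases, was the widest at 2.07-fold, lowest in sample 3 (46.2) and highest in sample 5 (100.9), or 1.60-fold with dim values raised to the array median. Atg7, the activating enzyme of autophagy, ranged 1.99-fold (1.64-fold when so raised), Pias3, a SUMO ligase, 1.79-fold (1.68-fold), and Cand1, an exchange factor of cullin ligases, 1.77-fold.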

How the data were processed

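The authors deposited 1 table of linear signal intensity for 12488 probe sets, 66 of them controls, on 6 arrays. How signals were summarised and scaled was not given in the sources used here. These deposited intensity values have the same trimmed mean (150.0) on each array and medians between 59.8 and 63.3. No detection calls or scan dates were used, so signal under the array median is not shown to be above background. Precision is limited by the number of arrays.

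Signals were divided by the array's median, controls left out, with a floor at 0.2 of that median, and put on the log2 scale (Python 3.11.15, pandas 2.3.3). The platform annotation named the probe sets, and the symbols of all 89 member probe sets matched the RefSeq gene table by gene identifier. The fixed rule names the 3 widest members and the narrowest of each class, members over 2-fold and members known from neurons, with a value in every sample. The code for scaling and range was checked on simulated signals of known fold, which says nothing of measurement error. The alternatives were other scaling, filters, probe sets and leaving out each sample. Although the rule reads symbols, the families and lists were chosen with earlier results of these data known.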

Additional observations from a re-analysis of the deposited data

Results flagged for a closer look

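In 3 of the 48 expressed members (6.25%) 1 sample stood apart from the other 5 by a gap that is large for the range of the 6 values, against 5.89% of all expressed genes. Chance alone marks about 1 in 20 genes, or 2.4 of 48. Uba3 was highest in sample 1, by 0.37 on the log2 scale (1.29-fold) over the next sample. Usp21, a protease that acts on histone H2A, was lowest in sample 2, by 0.27 (1.20-fold), with a signal of 118.0 there and 145.4 to 150.1 elsewhere. Usp24 was lowest in sample 1, by 0.15 (1.11-fold), with 102.5 there and 113.2 to 120.1 elsewhere.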

How the results depend on the processing

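The median range of the members (0.39) lay between 0.32 and 0.41 under the 13 alternatives. The number over 2-fold (1, Otub1) was 1 with no scaling, with quantile normalization and with dim values raised to the array median. It was 4 with no expression filter (Ube2c, Ube2e3 and Usp29 added, all dim), where the share of all genes was 12.9%, and 2 with only probe sets whose names mark no sharing (Usp34 added). It was 0 with the filter at the 75th percentile, where Otub1 is not included, and 0 with the mean of probe sets. Leaving out 1 sample gave 0 to 2: 0 without sample 1, Ube2c in place of Otub1 without sample 4, and both genes without sample 5 or sample 6. The number over 1.5-fold (8) was 14 of 61 with no filter (36.2% of all genes), 3 of 28 with the filter at the 75th percentile (12.6%), 5 of 43 with the mean of probe sets (22.3%) and 5 to 9 leaving out 1 sample (17.9% to 21.0%), lowest without sample 3. Single ranges were less stable: 14 of the 20 members named by the fixed rule moved by over 1.5 times under at least 1 alternative. With the mean of probe sets Ube2d2a went from 0.89 to 0.41 on the log2 scale. With only probe sets marked by no sharing, Ube2k went from 0.71 to 0.26 and Otud5 from 0.09 to 0.65. Without sample 1, Uba3 went from 0.49 to 0.12, and without sample 5, Usp2 from 0.58 to 0.30. No paired analysis was possible because the labels give no groups. The lack of detection calls limits what can be said of dim members.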
